A study of Mus musculus with 8 samples.

Results

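De novo lipogenesis is the path by which the liver turns carbohydrate carbon into fatty acids. A set of 10 genes of this path was described in the liver of wild-type and V227A mice: the enzymes *Acly*, *Acss2*, *Acaca*, *Acacb*, *Fasn* and *Me1*, the transcription factors *Srebf1* and *Mlxipl*, and the genes *Thrsp* and *Pnpla3*, both known as targets of these factors. They were chosen by gene symbol and not by a rule on measured values, though with earlier results of these data known. Each of the 10 symbols was found once among the 27179 genes of the series. Liver was taken from adult male C57BL/6NHsd mice after a 6 h fast, 4 of them wild-type (V227) and 4 homozygous for the alanine form (A227) of PPARɑ, the nuclear receptor that turns on fatty acid oxidation in the fasted liver. The V227A allele was made by germline base editing, so it is carried by every tissue and not by hepatocytes alone. RNA was sequenced from stranded poly-A libraries.

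The values described here are averages over all 8 libraries, as the authors fitted them, in CPM, the reads of a gene among each 1000000 reads of a library. Such an average has no spread between mice, so no SD and no test is given. Differences between V227A and wild-type were not analysed here. Reads per library were estimated from the average log2 CPM and a mean effective library size of 27474001 reads. Of the 27179 genes, 18937 had reads, with a median of 100.1 estimated reads per library.

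Cytosolic acetyl-CoA is the building block of the path. ACLY makes it from citrate and ACSS2 from acetate. The carboxylases ACACA and ACACB add a carboxyl group to give malonyl-CoA, which FASN, the fatty acid synthase, joins into palmitate, while malic enzyme ME1 supplies NADPH. In liver the genes are known to be driven by 2 transcription factors: SREBP1, the product of *Srebf1*, after insulin, and ChREBP, the product of *Mlxipl*, after sugar. THRSP is a small protein known to support lipogenesis, and PNPLA3 is a lipid droplet protein whose human gene is tied to fatty liver disease.

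Promoter sequences came from RefSeq on build GRCm38.p6 and cover 300 bases, from 250 before to 50 after an annotated start. All 10 genes were matched, to 14 windows, since *Srebf1* has 3 annotated starts and *Mlxipl* and *Me1* have 2 each. Those of 3 genes are shown. *Fasn* has the most CCAAT matches among the windows of these genes, with overlapping matches on both strands each counted. *Thrsp* has the highest level per length, and the pair of *Mlxipl* starts differ in the motifs they hold. Capitals mark the E-box CACGTG, a site of bHLH factors, and the CCAAT box, bound by NF-Y, which reads ATTGG on the other strand. Each sequence is written 5′ to 3′ on the strand of its gene.
*Fasn*, chr11:120824498-120824797, minus strand: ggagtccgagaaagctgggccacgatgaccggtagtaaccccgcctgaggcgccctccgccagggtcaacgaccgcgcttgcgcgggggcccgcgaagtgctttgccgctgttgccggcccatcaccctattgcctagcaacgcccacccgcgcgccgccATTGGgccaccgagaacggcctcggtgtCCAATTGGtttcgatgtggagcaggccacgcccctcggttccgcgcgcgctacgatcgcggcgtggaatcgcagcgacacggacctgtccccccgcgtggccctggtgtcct
*Thrsp*, chr7:97417501-97417800, minus strand: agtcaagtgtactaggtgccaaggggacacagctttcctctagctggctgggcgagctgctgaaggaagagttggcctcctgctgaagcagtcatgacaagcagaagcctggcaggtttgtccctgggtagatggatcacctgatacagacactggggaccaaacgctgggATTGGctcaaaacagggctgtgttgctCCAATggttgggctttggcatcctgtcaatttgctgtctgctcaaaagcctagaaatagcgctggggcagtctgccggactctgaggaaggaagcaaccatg
*Mlxipl*, upstream start, chr5:135089640-135089939, plus strand: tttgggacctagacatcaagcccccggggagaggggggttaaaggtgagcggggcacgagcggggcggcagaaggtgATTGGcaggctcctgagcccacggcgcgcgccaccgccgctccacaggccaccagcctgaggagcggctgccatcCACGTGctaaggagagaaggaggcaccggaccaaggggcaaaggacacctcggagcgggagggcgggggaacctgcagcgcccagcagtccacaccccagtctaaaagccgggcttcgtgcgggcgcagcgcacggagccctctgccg
*Mlxipl*, downstream start, chr5:135106641-135106940, plus strand: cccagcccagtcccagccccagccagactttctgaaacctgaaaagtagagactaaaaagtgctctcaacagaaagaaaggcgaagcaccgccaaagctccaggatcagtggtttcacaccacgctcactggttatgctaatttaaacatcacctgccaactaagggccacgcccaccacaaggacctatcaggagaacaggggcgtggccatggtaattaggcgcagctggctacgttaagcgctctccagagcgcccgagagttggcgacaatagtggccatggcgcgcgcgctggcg

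The CCAAT box was the motif most often found in the promoters of the lipogenic genes. It was present on either strand in 10 of 14 windows (71.4%), covering 9 of the 10 genes, against 37.4% of all 32851 promoter windows of the same length. *Fasn* held 3 matches, 85, 57 and 54 bases before the start. The last 2 overlap, 1 on each strand, in the palindromic run of its sequence above, so they are not separate sites. *Thrsp* held 2 copies, 74 and 47 bases before the start. *Acss2*, *Acacb* and *Pnpla3* held 1 copy each, 68, 82 and 94 bases before the start, and *Acly* held 1 copy 37 bases after it. *Acaca* held none of the motifs searched in its 1 window. The starts used for *Acaca* (84195438) and *Acacb* (114165518) lie inside these genes, whose annotated spans begin at 84129672 and 114146535. Promoters at those gene ends were not searched. On the strand of the gene alone, 5 windows held a CCAAT box, or 35.7%, against 21.1% of all windows.

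Exact copies of the sites of the factors that give the path its control were rare in these short windows, as in all windows. The E-box CACGTG lay in 1 of 14 windows (7.14%), close to the 7.15% of all windows. It was the upstream start of *Mlxipl*, 92 bases before the start. The GC box GGGCGG, a site of Sp1, lay in 7 windows (50%) against 35.7% of all. The TATA box TATAAA lay in the window of *Acacb* alone, 28 bases before the start, and in 13.6% of all windows. The letters ATCACCCC, the core of a sterol regulatory element read by SREBP, were in none of the 14 windows and in 0.770% of all. A direct repeat of AGGTCA with 1 base between, the form read by PPARɑ with RXR, was in none of the 14 and in 0.0396% of all, and the repeat with 4 bases between, read by LXR with RXR, in none of the 14 and in 0.0152% of all. CACGTG repeated with 5 bases between, an idealised form of the element read by ChREBP with MLX, was in no window of either set. That search therefore says nothing on sites of ChREBP in these windows. Only exact letters were searched, so the absence of a match says that these letters are not in this window. The sterol element and the repeats are so rare in all windows that none in 14 does not set these genes apart. Binding was not measured.

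**Figure D1:**
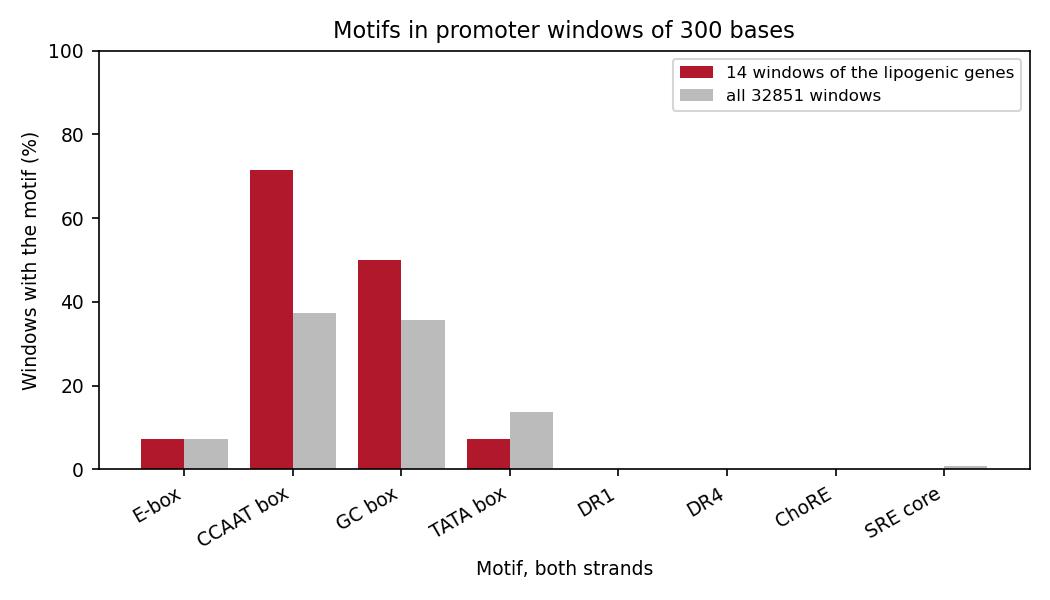
Share of promoter windows that hold each motif on either strand (y axis, percent) for the 14 windows of the lipogenic genes (red bars) and all 32851 windows (grey bars), by motif (x axis). The CCAAT box stands at 71.4% against 37.4% and the E-box at 7.14% against 7.15%, while the 4 motifs at the right are near or at 0 in both sets.

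The lipogenic genes were well measured, except for *Pnpla3*. Average log2 CPM was 8.26 for *Mlxipl*, 7.92 for *Thrsp*, 7.54 for *Fasn*, 7.25 for *Acss2*, 6.82 for *Acly*, 6.72 for *Acacb*, 6.58 for *Srebf1*, 6.46 for *Me1*, 5.40 for *Acaca* and 0.02 for *Pnpla3*. The first 9 had between 1155 and 8412 estimated reads per library. *Pnpla3* had 25.9, with a 95% exact Poisson interval of 22.5 to 29.6. This interval covers only the counting error of the mean over all 8 libraries. The counting error of a single library is wider. By reads alone, without regard to length, 8 of the 10 lay in the top 10% of genes with reads, and their median percentile was 94.1. Together the 10 genes took 0.133% of all CPM.

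**Figure D2:**
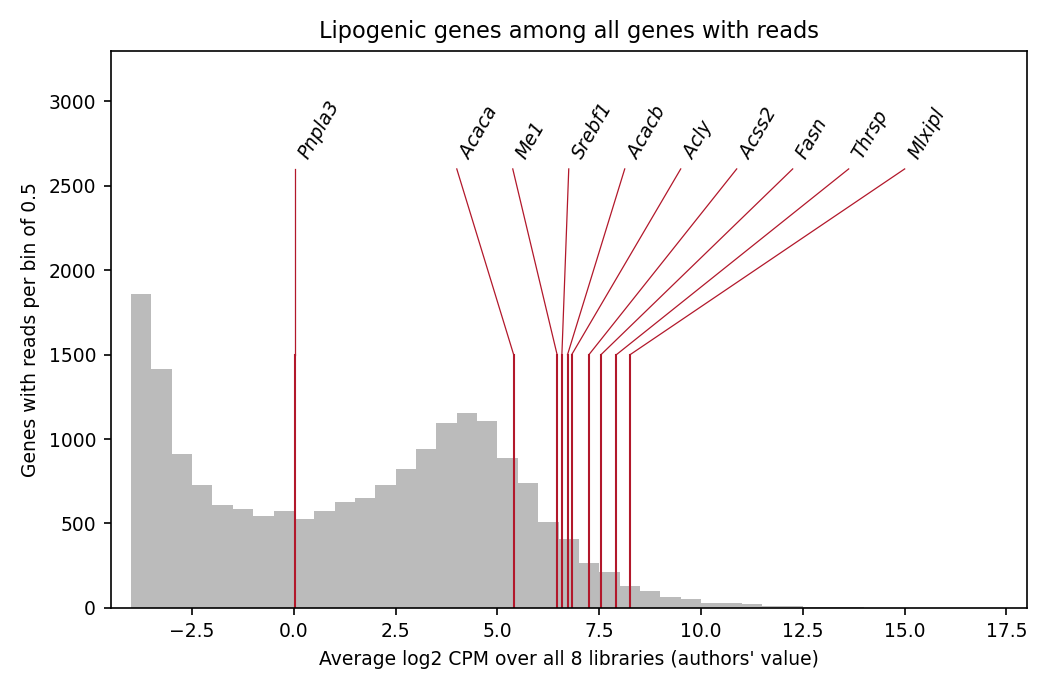
Distribution of the authors' average log2 CPM (x axis) over the 18937 genes with reads (y axis, number of genes), with the 10 lipogenic genes marked. Of these, 9 lie between 5.40 and 8.26, well above the median gene at 1.89, and *Pnpla3* lies at 0.02.

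To set genes beside each other, CPM was divided by the length in kb of the longest annotated transcript. On this scale the levels ran in the order *Thrsp* (173 CPM per kb), *Mlxipl* (84.5), *Acss2* (42.1), *Me1* (26.8), *Acly* (25.6), *Srebf1* (22.3), *Fasn* (18.6), *Acacb* (12.0), *Acaca* (4.42) and *Pnpla3* (0.717). The highest was 241 times the lowest. The median of the 10 was 23.9 CPM per kb, against 1.52 over all genes with a length. Of the 10, 8 lay in the top 25% of those genes per kb, and 4 in the top 10%. With the coding length, 7 lay in the top 25%. *Me1*, *Acly*, *Srebf1* and *Fasn* lay close together and their order is not firm: with the mean transcript length the level per kb was 44.7 for *Me1*, 47.5 for *Acly*, 65.3 for *Srebf1* and 52.1 for *Fasn*. With the coding length the order of all 10 was the same as with the longest transcript. The longest transcripts of *Acss2* (3 exons, 3609 bases) and *Thrsp* (1 exon, 1400 bases) have no annotated coding sequence. With the longest protein-coding transcript instead, *Acss2* was at 51.8 CPM per kb and *Thrsp* at 190, with the order of the 10 unchanged.

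**Figure D3:**
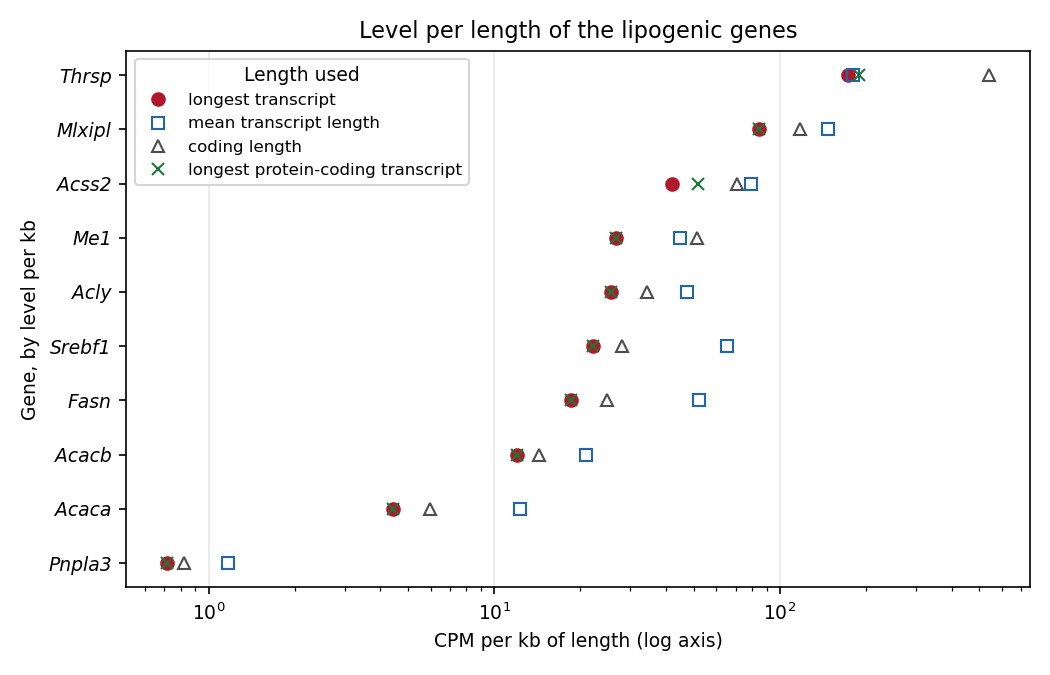
CPM per kb (x axis, log) of each lipogenic gene (y axis) under 4 ways of measuring gene length, 1 marker type for each. *Thrsp* and *Mlxipl* lie highest and *Acaca* and *Pnpla3* lowest under all 4, while *Me1*, *Acly*, *Srebf1* and *Fasn* change places with the mean transcript length.

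Both sources of cytosolic acetyl-CoA were expressed. *Acss2* (ENSMUSG00000027605, chromosome 2) was 1.64 times as high per kb as *Acly* (ENSMUSG00000020917, chromosome 11), with 1.64 to 2.07 over the 4 lengths. *Acss2* stood far above its relatives of the acetyl-CoA synthetase family: *Acss1*, the mitochondrial form, was at 0.0515 CPM per kb and *Acss3* at 0.488. The ratio to *Acss1* was 817 (498 to 1006 over the lengths), with about 5.12 reads per library of *Acss1*. *Slc25a1*, the carrier that brings citrate out of mitochondria to ACLY, was at 144 CPM per kb, 5.62 times *Acly*. *Cs*, citrate synthase, was at 36.6 CPM per kb. *Acss2* overlaps *Gss*, a gene on the opposite strand, over 22544 bases of its annotated span, and the strand setting of the counting is not stated, so some reads may be shared between them. *Gss* had 1895 estimated reads per library and *Acss2* had 4170.

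Of the acetyl-CoA carboxylases, the form tied to the mitochondrial surface was the higher. *Acacb* (ENSMUSG00000042010, chromosome 5), whose malonyl-CoA is known to restrain entry of fatty acids into mitochondria, was at 12.0 CPM per kb. *Acaca* (ENSMUSG00000020532, chromosome 11), the cytosolic form that feeds fatty acid synthase, was at 4.42. The ratio was 2.71 with the longest transcript and 1.70 with the mean length. *Mlycd*, which breaks malonyl-CoA down, was at 43.7 CPM per kb, or 3.64 times *Acacb* (2.42 to 6.05 over the lengths). *Acaca* overlaps the opposite-strand gene *Gm11437* over 19126 bases, but that gene had only 43.1 estimated reads per library.

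*Fasn* (ENSMUSG00000025153, chromosome 11) was at 18.6 CPM per kb, 4.20 times *Acaca*, and this ratio stayed between 4.15 and 4.22 over the lengths. Its own product is passed on to desaturation and elongation. *Scd1*, the main liver stearoyl-CoA desaturase, was at 827 CPM per kb, 44.6 times *Fasn* with the longest transcript and 151 times with the coding length. *Elovl6*, which extends palmitate, was at 9.26 CPM per kb, and its place relative to *Fasn* turned with the length used (0.499 times with the longest transcript, 2.77 times with the coding length). *Fasn* and *Thrsp* overlap no other annotated gene.

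Of the 4 genes listed for cytosolic NADPH supply, *Idh1* and *Me1* had the highest transcript levels per kb. NADPH itself was not measured. *Me1* (ENSMUSG00000032418, chromosome 9) was at 26.8 CPM per kb, against 0.360 for *Me2* and 0.0235 for *Me3*, the mitochondrial malic enzymes. Of the pentose phosphate path, *G6pdx* was at 1.23 and *Pgd* at 7.98 CPM per kb, so *Me1* was 21.8 times *G6pdx* (17.3 to 24.4) and 3.36 times *Pgd* (2.04 to 3.36). *Idh1*, the cytosolic isocitrate dehydrogenase, was at 123 CPM per kb, 4.61 times *Me1*.

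Both transcription factors were expressed, and *Mlxipl* was the higher. *Mlxipl* (ENSMUSG00000005373, chromosome 5) was at 84.5 CPM per kb and *Srebf1* (ENSMUSG00000020538, chromosome 11) at 22.3, a ratio of 3.80 (2.25 to 4.20). Each was above its paralog. *Srebf1* was 3.35 times *Srebf2* (2.82 to 4.37), whose product mainly drives cholesterol synthesis, and *Mlxipl* was 60.4 times its paralog *Mlxip* with the longest transcript and 31.8 times with the coding length. *Mlx*, the partner with which ChREBP binds DNA, was at 13.8 CPM per kb, so *Mlxipl* was 6.11 times *Mlx* (3.88 to 6.11). The starts of *Srebf1* spread over 12.1 kb and those of *Mlxipl* over 17.0 kb. Reads were counted per gene, so the SREBP1a and SREBP1c forms, or the forms of ChREBP, cannot be told apart in these values. *Srebf1* shares 109 bases with *Rai1* on the opposite strand.

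Genes that hold SREBP in or release it from the endoplasmic reticulum were expressed around *Srebf1*. *Scap*, the escort, was at 35.5 CPM per kb, *Insig1* at 50.8 and *Insig2* at 58.0, and the proteases that cut SREBP were lower, with *Mbtps1* at 8.72 and *Mbtps2* at 0.766. Of the 7 genes of SREBP processing, 5 lay in the top 25% per length. Genes of sugar uptake and breakdown were listed around *Mlxipl*. *Khk*, the fructokinase, was at 258 CPM per kb and *Slc2a2*, the glucose transporter, at 20.7. *Pklr*, a pyruvate kinase known as a ChREBP target, was at 70.8. With *Mlxipl*, *Mlx* and *Mlxip* this list holds 6 genes, of which 5 lay in the top 25%. The 6 other regulators, *Nr1h3*, *Nr1h2*, *Rxra*, *Usf1*, *Usf2* and *Ppara*, all lay in it, at 12.1 to 97.2 CPM per kb, with *Ppara* the highest. Of the lists downstream of *Fasn*, 5 of 7 genes of desaturation and elongation lay in the top 25%, and 6 of 7 of esterification, led by *Dgat2*, which makes triglyceride, at 237 CPM per kb. Over all lists of the path and the relatives of the 10 genes, 32 of the 44 genes that are not among the 10 lay in the top 25%.

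The 2 genes known as targets of these factors stood at opposite ends. *Thrsp* (ENSMUSG00000035686, chromosome 7) was at 173 CPM per kb, 12.1 times its paralog *Mid1ip1* (6.28 to 13.2 over the lengths), whose product helps ACACA to polymerize. It was 9.33 times *Fasn*, with a range of 3.48 to 21.7 over the lengths. *Pnpla3* (ENSMUSG00000041653, chromosome 15) was at 0.717 CPM per kb, below the median of 1.52. *Pnpla2*, the adipose triglyceride lipase and its paralog, was at 82.8 CPM per kb, 115 times *Pnpla3* (115 to 182), while *Pnpla5* was lower still at 0.0419. *Pnpla3* lies 1.55 Mb from *Ppara*, the edited gene, on the same chromosome.

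**Figure D4:**
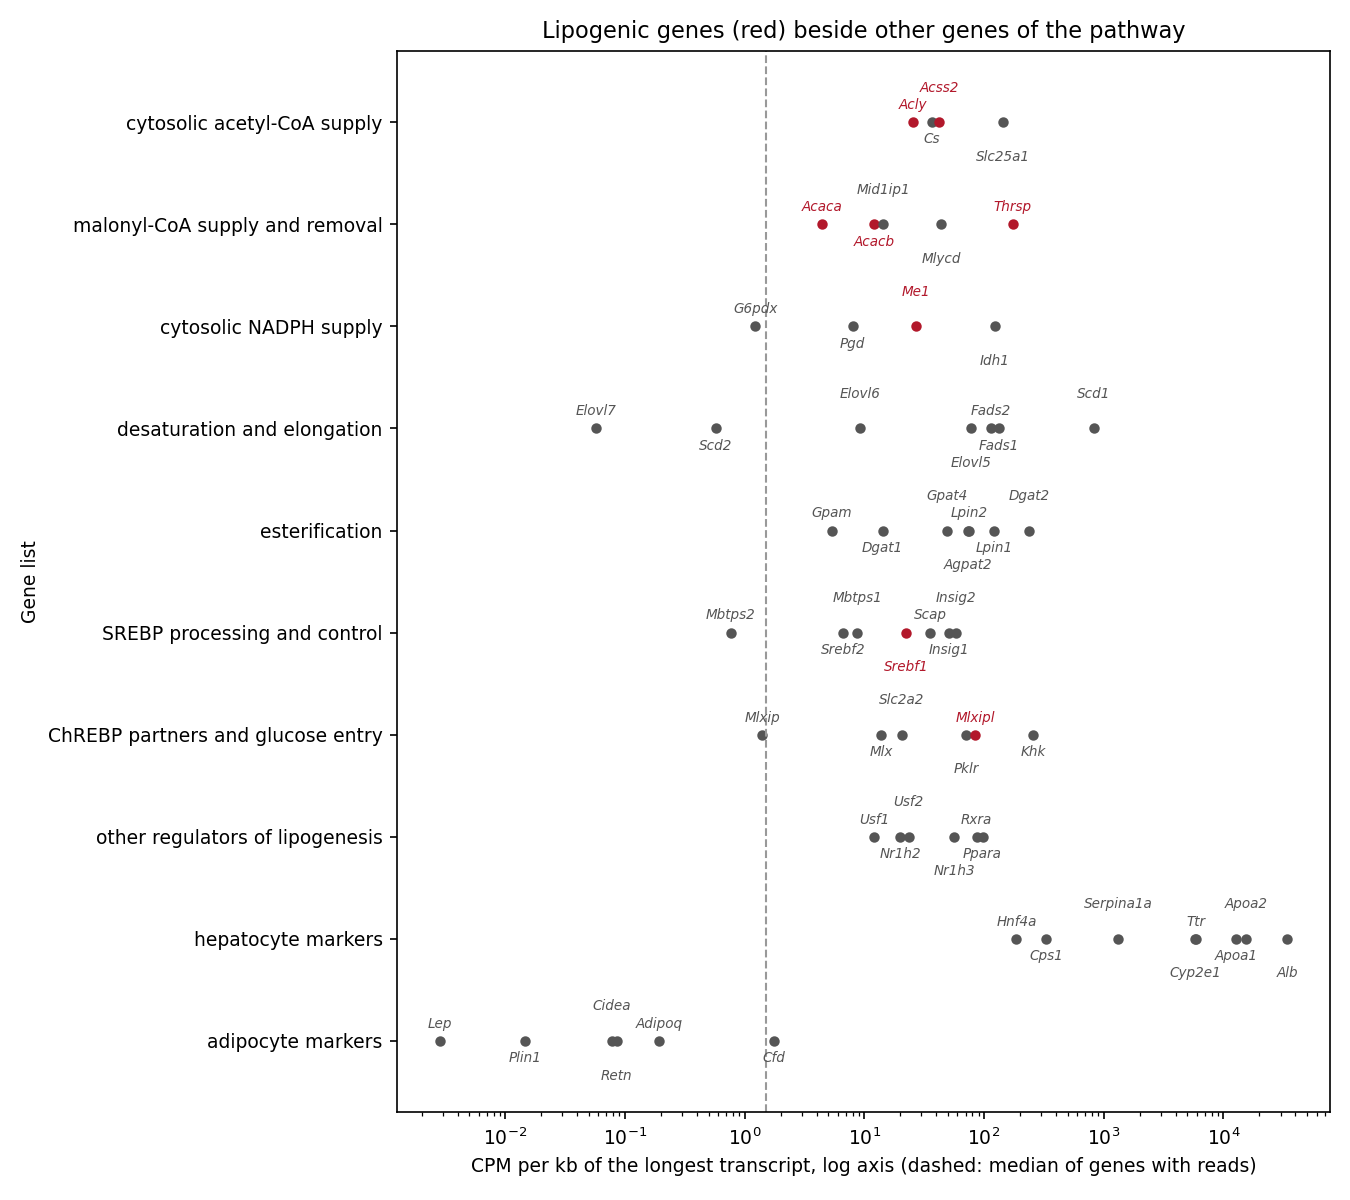
CPM per kb of the longest transcript (x axis, log) for the lipogenic genes (red) and the other genes of each list (grey), with 1 line per list (y axis) and a dashed line at the median of all genes with a length, 1.52. Most path genes lie right of the line, *Scd1* at 827 is the highest of them, and 5 of the 6 adipocyte markers lie left of it.

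Lists that mark cell types were set beside the 10 genes. They do not assign the reads of these genes to a cell type. All 8 hepatocyte markers, from *Hnf4a* at 186 CPM per kb to *Alb* at 34208, lay in the top 10% per length. Fat cells also make fatty acids and express most of these 10 genes. The 6 adipocyte markers lay between 0.00284 and 1.76 CPM per kb, none of them in the top 25%. *Lep* was at 0.254 estimated reads per library, *Plin1* at 1.14, *Adipoq* at 6.88 and *Cfd*, the highest, at 44.6. Cholangiocyte markers lay between 0.303 and 2.35 CPM per kb and stellate cell markers between 1.24 and 21.2. Kupffer cell and macrophage markers lay between 1.45 and 33.2, endothelial markers between 1.93 and 26.2, and red blood cell markers between 26.0 and 124. The top 25% held 0 of 4 cholangiocyte, 1 of 5 stellate cell and 1 of 5 endothelial markers. It also held 2 of 5 Kupffer cell and macrophage markers and all 3 red blood cell markers. In bulk liver, a level that comes from fewer cells and one that comes from less RNA per cell cannot be told apart.

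In the genome, 4 of the 10 genes lie on chromosome 11, which holds 8.12% of the genes with reads and a position. They are not neighbours: *Srebf1* and *Acaca* are 23.9 Mb apart, *Acaca* and *Acly* 16.1 Mb, and *Acly* and *Fasn* 20.3 Mb. Of the 10 genes, 8 overlap another annotated gene, 7 of them one on the opposite strand, and 3 a protein-coding one on that strand (*Acss2*, *Acaca* and *Srebf1*). No gene that overlaps *Acly*, *Acacb*, *Me1*, *Mlxipl* or *Pnpla3* is protein coding. The same shares over all genes were not computed, so these counts do not set the 10 genes apart.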

How the data were processed

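RNA-seq was performed on liver of 4 wild-type and 4 V227A mice. The authors trimmed reads with Trimmomatic, aligned them with STAR to GRCm38 (mm10), obtained gene counts with featureCounts and fitted both genotypes in edgeR. Tool versions, the annotation and the strand setting are not given in the sources used here. The deposited table holds the authors' average log2 CPM over all libraries and, from their own comparison, columns of fold change, F, p-value and FDR. These last 4 columns hold the authors' findings and were not used. Since 0 columns hold values of single libraries, the depth of each library and the spread between mice are unknown.

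Average log2 CPM was turned into CPM by subtracting the small offset (a prior count of 2) added in that fit. The 8242 genes at the floor of -3.78 have no reads and were left out. The mean effective library size (27474001 reads) followed from that floor. It was checked on the 918 genes with 1 read in total, whose estimates lay between 0.984 and 1.02. Reads per library are estimates, since the average is a fit over both genotypes. Intervals cover counting error only. Lengths came from GENCODE vM21, matched by Ensembl identifier for 17238 genes (91.0%). Motifs were searched on both strands of RefSeq promoters (GRCm38.p6). Named genes come from lists of path genes and cell markers, apart from the overlapping genes *Gss*, *Gm11437* and *Rai1*, which were chosen after their values were seen. One gene of these lists is not reported here. These members and lists were chosen with earlier results of these data known. Conversion and motif search were tested on simulated data. Python 3.11.15, pandas 2.3.3, numpy 2.4.6, scipy 1.17.1 and matplotlib 3.10.9 were used.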

Additional observations from a re-analysis of the deposited data

How the results depend on the processing

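The averages carry no spread, so the alternatives were compared by value only. The median percentile of the 10 genes by reads was 94.1, and became 90.5 among genes with a log2 CPM of at least 0 and 95.9 among all rows. Their median level was 23.9 CPM per kb, and became 49.8 with the mean transcript length and 31.2 with the coding length. Windows with a CCAAT box fell from 10 to 5 on the strand of the gene alone. Each of 28 ratios per kb was set against its value under 3 other lengths. Of these 84 comparisons, 19 moved the ratio over 1.5 times. *Insig1* over *Srebf1*, for example, ran from 1.21 to 6.26. Of 28 ratios per kb, 3 turned: *Fasn* over *Acly* was 0.726 and became 1.10 with the mean length, *Elovl6* over *Fasn* was 0.499 and became 2.77 with the coding length, and *Me1* over *Acly* was 1.05 and became 0.941 with the mean length. The cause was not tested, but only the length changed. The longest protein-coding transcript was an alternative chosen after seeing the data. No paired analysis was possible because no values per library were used, and for the same reason no replicate could be left out in turn. Depth limits the precision of genes with few reads, such as *Pnpla3* among the 10.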
